A study of Homo sapiens with 8 samples.

Results

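The 10 genes described here make the thioredoxin, thioredoxin reductase, sulfiredoxin and glutaredoxin proteins of human cells together with the thioredoxin-binding protein TXNIP. They were taken by gene symbol (TXN, TXN2, TXNRD1, TXNRD2, SRXN1, GLRX, GLRX2, GLRX3, GLRX5 and TXNIP), and all 10 were found among the 25192 symbols of the expression tables. The libraries came from HT29 and SW480, human colorectal cancer cell lines that both carry truncated APC, each transfected for 36 h with control siRNA or with siRNA against PRDX2, the gene of peroxiredoxin II (PrxII). Each of the 4 groups held 2 libraries of messenger RNA, which makes 8 in all. HT29 was grown in McCoy's 5A medium and SW480 in RPMI1840, so that cell line and medium cannot be told apart. The labels do not say whether both lines were sequenced together, and any difference in occasion cannot be told apart from the line either. They also do not give which PrxII siRNA was used or whether duplicates were separate transfections. The p-values below therefore measure the spread between these libraries, which may be technical.

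Thioredoxin is a small protein with a pair of active-site cysteines that reduces disulfides in other proteins, and thioredoxin reductase, a selenoprotein, recharges it with electrons from NADPH. Peroxiredoxins such as PrxII destroy hydrogen peroxide with cysteines that thioredoxin returns to the reduced form, and sulfiredoxin rescues those that peroxide has overoxidized to sulfinic acid. Glutaredoxins draw on glutathione instead, and the members with a single active-site cysteine carry iron-sulfur clusters. TXNIP is an alpha-arrestin that binds thioredoxin, limits glucose uptake and is induced when glucose metabolites activate the transcription factor MondoA with its partner MLX.

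TXNIP and TXNRD1 were the members whose messenger RNA changed after PrxII depletion in HT29 cells, and their promoter windows are shown for that reason. RefSeq windows of 300 bases on GRCh38, from 250 bases before the start site to 50 after, were given for 8 of the 10 members as 14 windows. A first search looked on both strands for TGACNNNGC, the core of the antioxidant response element that NRF2 binds, and for the E-box CACGTG. TGACNNNGC occurred in 13.3% of all 35116 promoter windows and CACGTG in 7.26%. Among the windows of members, TGACNNNGC was found only in 2 windows of TXNRD1, and CACGTG only in 1 window of GLRX2. The TXNIP windows held neither. Once the TXNIP sequence had been read, a search for a pair of CACGNG blocks set 5 bases apart was added, which is the spacing of the carbohydrate response elements that MondoA and its relative ChREBP bind. That pair occurred in 20 of the 35116 windows (0.057%), and the window at the TXNIP start site was the one among the members to hold it. In the sequences below, written 5' to 3' along the gene, capitals mark TGACNNNGC on either strand for TXNRD1 and the CACGNG blocks for TXNIP. A match describes these letters and does not show that a factor binds there.

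TXNRD1, upstream start, chr12:104215529-104215828, plus strand: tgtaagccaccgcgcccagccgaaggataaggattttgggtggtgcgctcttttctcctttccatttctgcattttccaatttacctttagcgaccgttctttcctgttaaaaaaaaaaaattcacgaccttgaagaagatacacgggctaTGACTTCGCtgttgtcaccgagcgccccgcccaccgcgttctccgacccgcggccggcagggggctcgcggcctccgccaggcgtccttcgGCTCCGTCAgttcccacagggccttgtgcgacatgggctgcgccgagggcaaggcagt
TXNRD1, downstream start, chr12:104286782-104287081, plus strand: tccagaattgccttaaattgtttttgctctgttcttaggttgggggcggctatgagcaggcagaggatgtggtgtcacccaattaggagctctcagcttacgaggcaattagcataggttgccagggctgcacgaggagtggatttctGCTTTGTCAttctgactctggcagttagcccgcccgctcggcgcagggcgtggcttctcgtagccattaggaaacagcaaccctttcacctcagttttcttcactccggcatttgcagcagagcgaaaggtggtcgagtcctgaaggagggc
TXNIP, chr1:145996530-145996829, minus strand: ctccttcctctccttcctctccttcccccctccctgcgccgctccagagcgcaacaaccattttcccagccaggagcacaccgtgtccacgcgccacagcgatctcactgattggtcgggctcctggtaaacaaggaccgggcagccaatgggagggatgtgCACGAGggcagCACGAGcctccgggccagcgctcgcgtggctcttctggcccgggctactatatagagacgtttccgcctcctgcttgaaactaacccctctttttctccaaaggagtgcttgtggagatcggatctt

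In the upstream TXNRD1 window the matches began 99 and 8 bases before the start site, on the plus and the minus strand. The match of the downstream window began 102 bases before the start site on the minus strand. The pair of CACGNG blocks in the TXNIP window began 88 bases before the start site.

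The expected counts of the 8 libraries summed to between 8857442 and 10164137, so that 3 counts correspond to 0.295 to 0.339 per 1000000 counts of a library before scaling. Levels are given below as CPM, the count per 1000000 counts after scaling with the TMM factors of edgeR over all 8 libraries. The members had between 83 and 8696 counts in every library, and the counting error was largest for GLRX2, at 8.57 to 11% of its value. PRDX2 went from 153.0 and 158.7 CPM to 85.3 and 86 CPM in HT29 cells and from 202.2 and 238 CPM to 67.2 and 68.3 CPM in SW480 cells, so the knockdown was present in both lines and was not complete. The SW480 control duplicates stood apart. A chi-square of their counts gave 11.2 per degree of freedom, against 1.43 to 2.13 for the other duplicates, and their difference (replicate 2 over replicate 1) followed transcript GC content across genes with a Spearman's rho of 0.72. The SW480 fold changes followed GC content too (rho 0.53), those of HT29 hardly (rho -0.06), and genes are not independent replicates. Of 8 epithelial markers, 7 were above 1 TPM in every library, and CDX1 was below that level in SW480. The summed levels of fibroblast, leukocyte and endothelial markers were 2.06 to 10.4, 16.2 to 37.6 and 0.1 to 1.96 TPM, with PTPRC and DCN at 0 in all libraries. Some markers moved with the knockdown. In HT29 cells the keratin genes KRT8 (-0.14), KRT18 (-0.26) and KRT19 (-0.28) were called lower on the log2 scale. CDX2, an intestinal transcription factor gene, was called higher (0.58). These are 4 of 8 epithelial markers, beside 17.6% of all tested genes called in either direction. In SW480 cells KRT18 was called lower (-0.37), 1 of 7 tested, beside 3.3% of all tested genes. Of the leukocyte markers CD68, which encodes a lysosomal protein, was called lower in HT29 cells (-0.40). Their part in the results below was not tested.

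PrxII depletion in HT29 cells raised TXNIP and TXNRD1 and changed no other member by the test. TXNIP, the thioredoxin-binding alpha-arrestin, was at 529.5 and 531.1 CPM with control siRNA and at 878 and 890 CPM with PrxII siRNA. Both depleted libraries lay far above both controls. This is 1.66-fold, or 0.73 on the log2 scale with a standard error of 0.02 (edgeR quasi-likelihood, Benjamini-Hochberg adjusted p = 8.75e-13 over 12961 genes). Among all genes tested, 2.48% had an absolute log2 fold change at least as large. TXNRD1, the cytosolic thioredoxin reductase, was at 447.3 and 447.8 CPM in the controls and at 512.9 and 508.7 CPM after depletion. These groups did not overlap either, and the change was small, 0.19 on the log2 scale (standard error 0.03, 1.14-fold, adjusted p = 6.84e-05 by the same test). In bulk RNA, a change within each cell and a change in the share of cells that express a gene cannot be told apart.

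**Figure D1:**
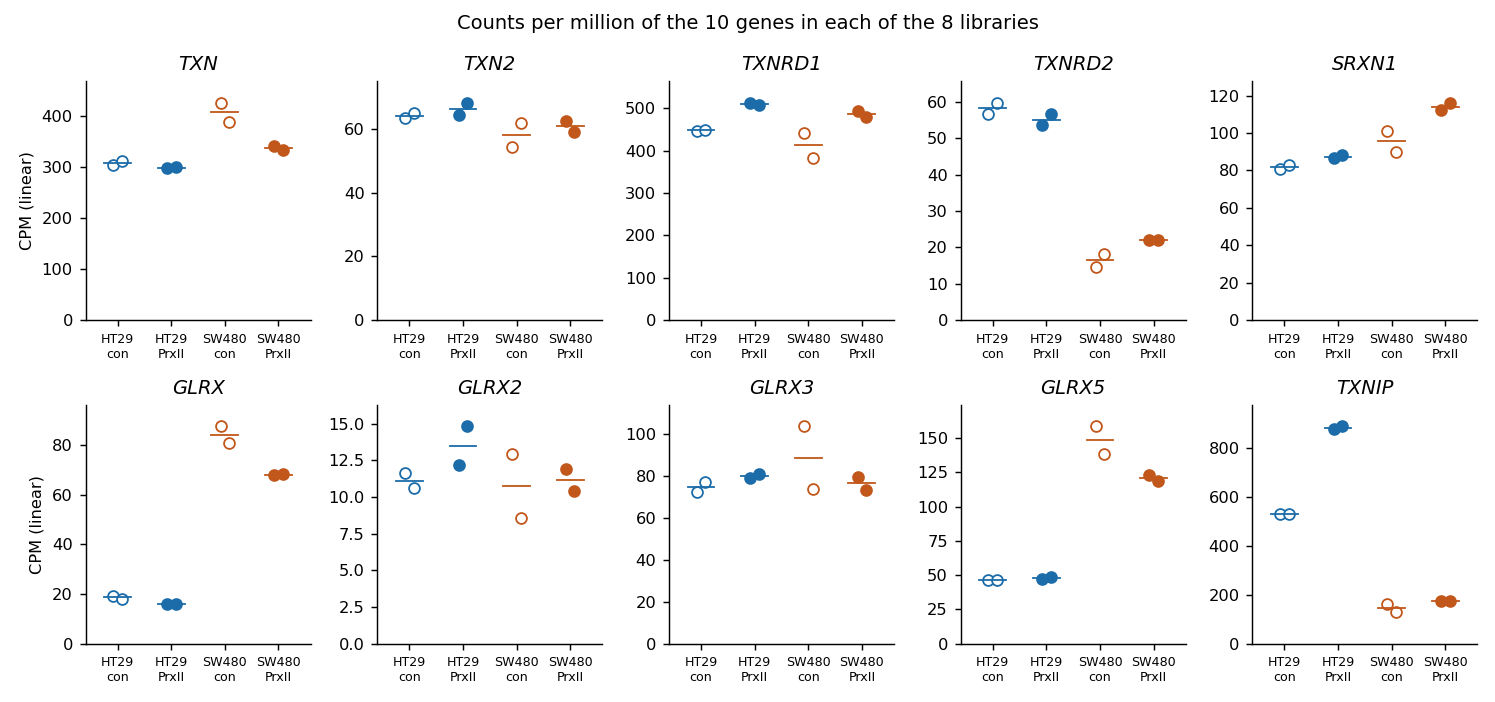
CPM (linear axis from 0) of the 10 genes in the 8 libraries, with open points for control siRNA, filled points for PrxII siRNA, blue for HT29, orange for SW480 and a line at the mean of each group of 2. TXNIP in HT29 cells moved from 529.5 and 531.1 to 878 and 890, while the SW480 controls spread widely for GLRX3, at 103.6 and 73.7.

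The 2 members called in HT29 cells are 20% of the 10, beside 17.6% of all tested genes called in either direction and 7.76% called higher, so the count itself is close to the background. Of the members, 9 had groups that did not overlap, against 57.1% of all tested genes. The fitted value for TXNIP stayed between 0.72 and 0.80 in every alternative. The call for TXNRD1 was lost when all 8 libraries were fitted together (adjusted p = 0.284, edgeR) and held in the other alternatives, leave-one-out fits included.

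The thioredoxins themselves did not pass the test in HT29 cells. TXN, the cytosolic and nuclear thioredoxin, was at 305.3 and 312.4 CPM in the controls and 297.7 and 301 CPM after depletion, or -0.05 on the log2 scale (standard error 0.03, adjusted p = 0.367, edgeR). Its sign turned to 0.02 when TPM values were tested with limma. TXN2, the mitochondrial thioredoxin, was at 63.3 and 65 CPM against 64.3 and 68.2 CPM, with overlapping groups. TXNRD2, the mitochondrial reductase, was at 56.8 and 59.8 CPM in the controls and at 53.7 and 56.6 CPM after depletion, or -0.08 on the log2 scale (standard error 0.06).

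SRXN1, the sulfiredoxin that repairs overoxidized peroxiredoxins, was at 80.7 and 82.8 CPM in HT29 controls and at 86.7 and 88.2 CPM after depletion. The groups did not overlap, yet the change of 0.10 on the log2 scale (standard error 0.05, adjusted p = 0.231, edgeR) did not pass the test. Among the glutaredoxins, GLRX, the cytosolic enzyme with a pair of active-site cysteines, was at 16 CPM in both depleted libraries against 19.4 and 17.9 CPM in the controls, or -0.23 on the log2 scale (standard error 0.11, adjusted p = 0.191, edgeR). GLRX2, found in mitochondria and nucleus, was at 11.6 and 10.6 CPM against 12.2 and 14.8 CPM (0.28, standard error 0.14), a value that ran from 0.14 to 0.42 when 1 depleted library was left out. GLRX3 and GLRX5, the single-cysteine glutaredoxins of the cytosol and the mitochondria, had log2 fold changes of 0.09 and 0.05 with adjusted p of 0.295 and 0.695 (edgeR).

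In SW480 cells no member passed the adjusted test, although the values of 7 members did not overlap between the groups, beside 58.7% of all tested genes. The edgeR fit called 3.3% of 14112 genes in this line. At an unadjusted p under 0.05 it took 6 members (TXN, TXNRD1, TXNRD2, SRXN1, GLRX and GLRX5), where 24.4% of all genes passed, and DESeq2 and limma called none at their adjusted thresholds. TXNRD1 was at 442.5 and 383.2 CPM in the controls and at 493.7 and 478.8 CPM after depletion, 0.24 on the log2 scale (standard error 0.10, adjusted p = 0.201, edgeR). SRXN1 was at 101.2 and 89.9 CPM against 112.2 and 116.2 CPM (0.26, standard error 0.11, adjusted p = 0.199, edgeR). For both genes the depleted libraries were above both controls, and the control duplicates differed from each other by more than the higher control differed from the lower depleted library.

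TXNIP was at 161.5 and 131.5 CPM in the SW480 controls and at 173.7 and 174.2 CPM after depletion, 0.25 on the log2 scale (standard error 0.12, 1.19-fold, adjusted p = 0.25, edgeR). The depleted libraries lay above both controls, and the controls differed from each other by more than the higher control differed from the depleted libraries. TXNRD2 was at 14.6 and 18.2 CPM against 21.9 and 22.1 CPM, or 0.42 on the log2 scale (standard error 0.17, adjusted p = 0.168, edgeR), the largest of the members here. Its transcripts have the highest GC content of the members, at 60.4%, and the value was 0.20 after each library had been corrected for GC content. TXN was at 426.6 and 388.6 CPM in the controls and 341.9 and 333.8 CPM after depletion (-0.27, standard error 0.10, adjusted p = 0.143, edgeR). It has the lowest GC content, at 35.6%, and its log2 fold change after the correction was 0.00, so the direction of TXN and the size of the TXNRD2 value depend on that correction.

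Of the SW480 glutaredoxins, GLRX was at 87.5 and 80.9 CPM in the controls and at 68 and 68.2 CPM after depletion (-0.31, standard error 0.11, adjusted p = 0.144, edgeR). GLRX5, which passes iron-sulfur clusters on within mitochondria, was at 158.4 and 138.5 CPM against 123.3 and 118.8 CPM (-0.29, standard error 0.11, adjusted p = 0.158, edgeR). In both cases the depleted libraries were below both controls. GLRX5 shares exon bases with SNHG10 and SCARNA13 on the opposite strand, and the library kit does not keep the strand, so reads from the shared part cannot be assigned with certainty. GLRX3 was at 103.6 and 73.7 CPM in the controls and at 79.5 and 73.4 CPM after depletion, so the first control alone stood apart. Its log2 fold change went from -0.44 without the second control to 0.05 without the first. GLRX2, at 12.9 and 8.57 CPM against 11.9 and 10.4 CPM, and TXN2, at 54.3 and 61.7 CPM against 62.5 and 59 CPM, overlapped.

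**Figure D2:**
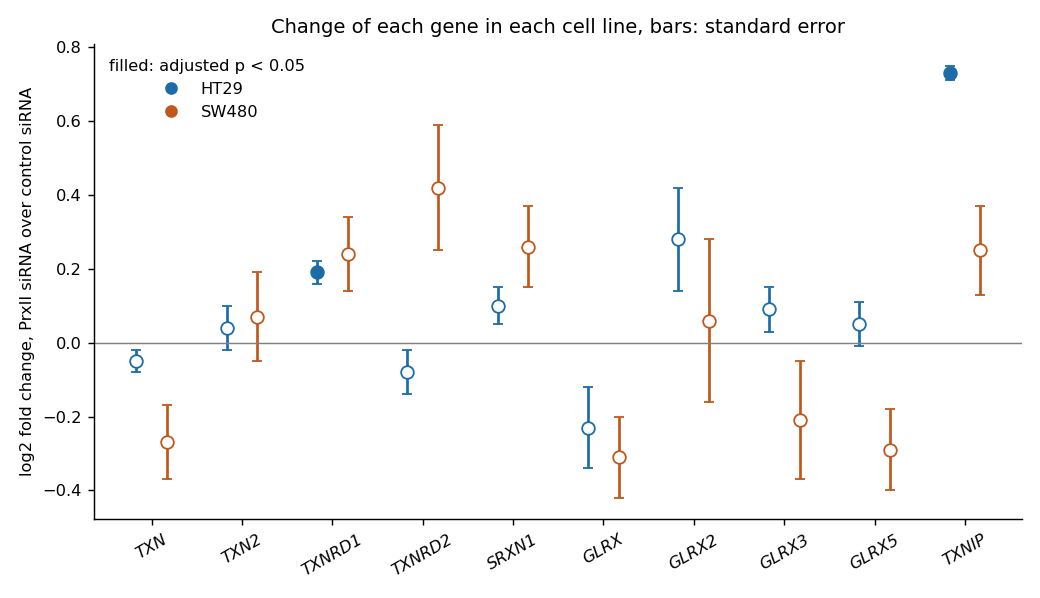
The log2 fold change of each gene (PrxII siRNA over control siRNA) in HT29 and SW480 cells from the edgeR fit of 4 libraries per line, with the standard error as bars and filled points where the adjusted p is under 0.05. TXNIP (0.73) and TXNRD1 (0.19) in HT29 cells are filled, and the bars of SW480 are wider for all 10 genes except GLRX, where both are 0.11.

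The SW480 calls depended on how the controls and GC content were handled. With the correction for GC content, TXNIP (0.35, adjusted p = 0.0111, edgeR) and TXNRD1 (0.32, adjusted p = 0.00586, edgeR) passed, 2 of 10 members where 16.5% of all genes passed. SRXN1 (0.23, adjusted p = 0.0654), GLRX (-0.19, adjusted p = 0.0662) and GLRX5 (-0.19, adjusted p = 0.0584) missed the threshold in that edgeR fit. When all 8 libraries shared 1 estimate of the spread, 6 members passed, against 16.3% of all genes. These were TXN, TXNRD1, TXNRD2, SRXN1, GLRX and GLRX5, and TXNIP was not among them (adjusted p = 0.0713, edgeR). Without the first control library 6 members passed beside 24.6% of all genes, and without the second 7 passed beside 52.8%. These fits gave TXNIP 0.40 and 0.10, TXNRD1 0.34 and 0.13, SRXN1 0.34 and 0.17 and TXNRD2 0.27 and 0.58. TXN, TXNRD1, SRXN1, GLRX and GLRX5 passed in both, TXNIP only without the first control, and TXNRD2 and GLRX3 only without the second. TXNRD1, TXNRD2, SRXN1 and TXNIP kept values above 0, and GLRX and GLRX5 values below 0, in every alternative run for SW480.

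**Figure D3:**
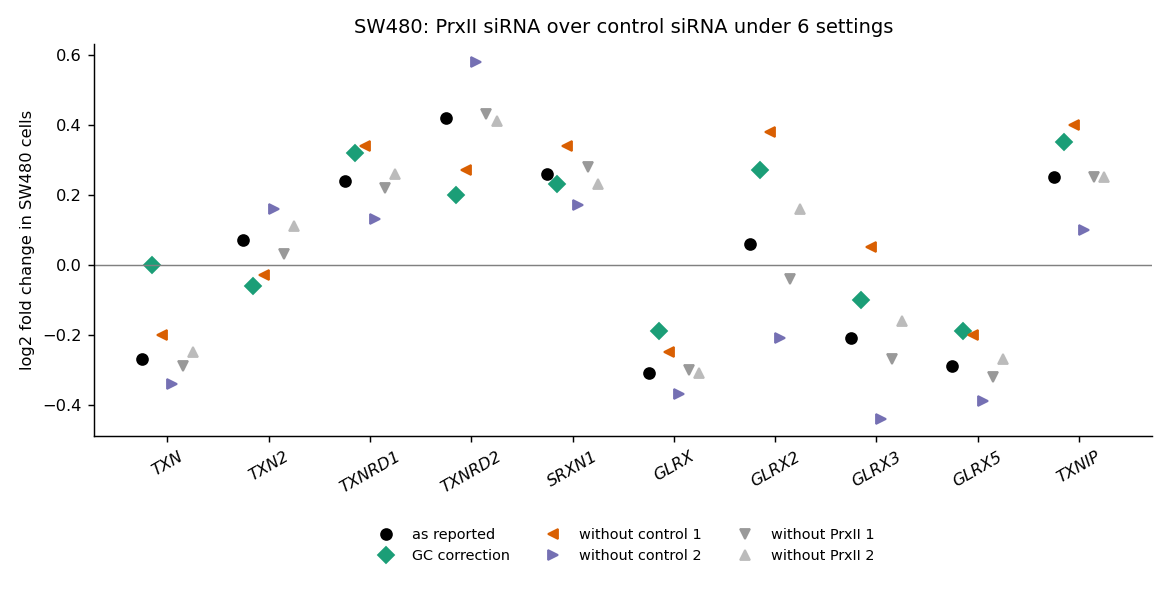
The log2 fold change of each gene in SW480 cells as reported, after the GC correction and with each of the 4 libraries left out in turn. The points of TXNRD1, TXNRD2, SRXN1 and TXNIP stay above 0 and those of GLRX and GLRX5 below 0, while GLRX3 runs from -0.44 to 0.05.

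Whether PrxII depletion acted differently in HT29 and SW480 was tested with an interaction term, written as the SW480 effect minus the HT29 effect. All 8 libraries shared 1 estimate of the spread in that fit. The common coefficient of variation between libraries was 0.0723 there, against 0.0249 for HT29 and 0.0993 for SW480 fitted alone. For TXNRD2 the standard error was 0.16, below its 0.17 in SW480 alone, so errors and p-values of the difference may be too small. No member passed the adjusted test, which called 1.12% of 14772 genes. At an unadjusted p under 0.05, 4 members passed (TXN, TXNRD2, GLRX5 and TXNIP), beside 19.2% of all genes. TXNIP was nearest, with a difference of -0.49 (standard error 0.12, adjusted p = 0.0744, edgeR), with 1.66-fold in HT29 cells and 1.19-fold in SW480 cells. DESeq2 called it (adjusted p = 0.021), as did the GC-corrected edgeR fit (-0.37, adjusted p = 0.00631), in which 6.69% of all genes passed. Over all alternatives its difference ran from -0.62 to -0.33 and its adjusted p from 2.12e-08 to 0.323. TXNRD2 (0.50, standard error 0.16, adjusted p = 0.14, edgeR) and GLRX5 (-0.34, standard error 0.12, adjusted p = 0.175, edgeR) had values of opposite sign in the 2 lines and did not pass. For TXNRD1 the difference was 0.05 with a standard error of 0.10, and for SRXN1 0.16 with a standard error of 0.11. PRDX2 itself fell further in SW480 cells (-1.70 against -0.87), and the part of knockdown depth in these differences was not tested.

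The lines already differed before depletion, most for GLRX, TXNIP, TXNRD2 and GLRX5. These levels compare the same control libraries that the knockdown comparisons use. GLRX was at 19.4 and 17.9 CPM in HT29 and at 87.5 and 80.9 CPM in SW480, 4.5-fold higher in SW480 (log2 2.17, standard error 0.13, adjusted p = 1.55e-06, edgeR). GLRX5 was at 46.2 and 46.4 CPM against 158.4 and 138.5 CPM (log2 1.68, standard error 0.12). TXN was higher too, with a log2 difference of 0.40 (standard error 0.10, adjusted p = 0.00587, edgeR), a call that was lost when either HT29 control was left out (adjusted p of 0.233 and 0.184). TXNIP was lower in SW480, at 161.5 and 131.5 CPM against 529.5 and 531.1 CPM (log2 -1.86, standard error 0.12). TXNRD2 was lower as well, at 14.6 and 18.2 CPM against 56.8 and 59.8 CPM (log2 -1.83, standard error 0.15), and TXNRD1 did not pass (log2 -0.12, standard error 0.10). In all, 3 members were called higher and 2 lower in SW480, while 35.7% of 14346 genes were called higher and 31.8% lower, so that differences of this kind were common. With the GC correction 7 members were called, where 10661 of 13685 genes were called. TXNRD1 was then called lower in SW480 (log2 -0.19, adjusted p = 0.00939, edgeR) and SRXN1 higher (log2 0.23, adjusted p = 0.0248, edgeR).

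**Figure D4:**
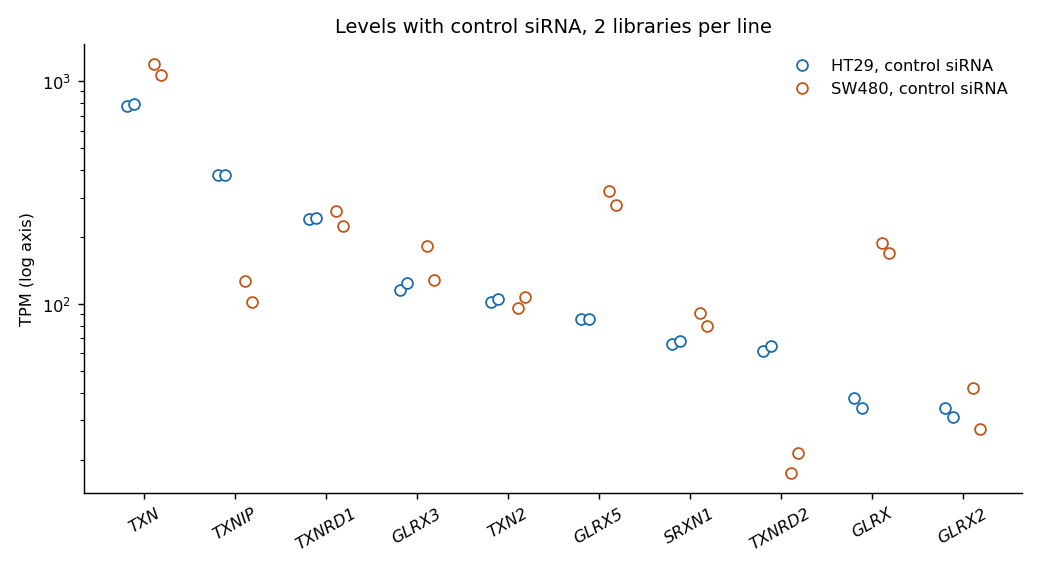
TPM (log axis) of the 10 genes in the 2 control libraries of each line, ordered by the HT29 mean. TXN is the highest in both lines, TXNIP and TXNRD2 are lower in SW480, and GLRX and GLRX5 are higher there.

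To compare levels between genes, TPM values, which divide by transcript length, were used. In HT29 controls the order was TXN (783.2 TPM, the mean of 2), TXNIP (380.3), TXNRD1 (242.1), GLRX3 (119.6), TXN2 (103.3), GLRX5 (85.6), SRXN1 (67), TXNRD2 (63), GLRX (35.9) and GLRX2 (32.7). GLRX and GLRX2 were the neighbours whose libraries overlapped. In SW480 controls the order was TXN (1130.3 TPM), GLRX5 (299.6), TXNRD1 (242.3), GLRX (178.7), GLRX3 (155.2), TXNIP (114.5), TXN2 (102), SRXN1 (85.4), GLRX2 (34.7) and TXNRD2 (19.3), and the libraries of GLRX and GLRX3 and those of TXNIP and TXN2 overlapped. After depletion TXNIP reached 661.7 TPM in HT29 cells, close below TXN at 792.1 TPM, and 144.6 TPM in SW480 cells, where TXN was at 993.2 TPM. The 10 genes together made up 1898.1 and 1927.5 TPM in HT29 controls and 2275 and 2304.6 TPM after depletion. In SW480 they made up 2516.4 and 2207.6 TPM in the controls and 2312.6 and 2252.8 TPM after depletion.

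Ratios of TPM values within a library do not depend on its scaling. The TXNIP to TXN ratio was 0.49 and 0.481 in HT29 controls and 0.834 and 0.837 after depletion. In SW480 it was 0.106 and 0.0956 in the controls and 0.144 and 0.148 after depletion, higher in both depleted libraries than in either control. The TXNRD1 to TXN ratio went from 0.312 and 0.306 to 0.367 and 0.36 in HT29 cells and from 0.219 and 0.209 to 0.307 and 0.304 in SW480 cells. In both lines the reductase thus stood higher relative to thioredoxin in the depleted libraries, without overlap between the groups. TXN transcripts have a GC content of 35.6%, against 47% for TXNRD1 and 46.2% for TXNIP. After the GC correction the SW480 log2 fold change of TXN was 0 instead of -0.27. The part of GC content in the SW480 shift of the TXNRD1 to TXN and TXNIP to TXN ratios was not tested. The ratio of SRXN1 to PRDX2 was 0.2 and 0.198 in HT29 controls and 0.384 and 0.389 after depletion, and 0.189 and 0.143 against 0.63 and 0.642 in SW480 cells. PRDX2 is the siRNA target, so its own fall enters this ratio. These ratios were not tested.

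The genes around the members were taken as lists, chosen with earlier results of these data known, so their counts are a description. Over all tested genes, 17.6% were called in HT29 cells in either direction and 7.76% were called higher. In SW480 cells 3.3% were called in either direction. Among the peroxiredoxins, the family of PrxII, 2 of 6 were lower in HT29 cells and none higher. These were PRDX2, the target, and PRDX1, at 328.3 and 335.7 CPM against 302.7 and 300.2 CPM (log2 -0.14, adjusted p = 0.00531, edgeR). In SW480 cells only PRDX2 was called. The alpha-arrestins, the family of TXNIP, and its MondoA, ChREBP and MLX regulators had 3 of 7 tested genes higher in HT29 cells, with a median log2 fold change of 0.15 against 0 over all genes. ARRDC4, an alpha-arrestin like TXNIP, was at 37.2 and 38.3 CPM in the controls and at 63.9 and 67.6 CPM after depletion (log2 0.80, adjusted p = 1.38e-07, edgeR). ARRDC3 followed with 0.48 and MLX with 0.15. In SW480 cells none of the 7 was called, and ARRDC4 was at 18.4 and 18.1 CPM against 20.2 and 21.5 CPM (0.19, adjusted p = 0.453, edgeR). The effect on ARRDC3 differed between the lines (SW480 minus HT29 -0.93, adjusted p = 0.037, edgeR), with 39.7 and 31.8 CPM against 26.3 and 25.8 CPM in SW480.

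Glutathione synthesis and reduction, the system that serves the glutaredoxins, had 4 of 6 genes higher in HT29 cells and none lower, with a median of 0.29. Of all tested genes 7.76% were called higher in this line. SLC7A11, the cystine importer, was at 212.1 and 200.2 CPM against 288.0 and 281.3 CPM (log2 0.46, adjusted p = 1.64e-07, edgeR). GSS, glutathione synthetase, had 0.38, SLC3A2, the partner chain of SLC7A11, had 0.36, and GCLC, the catalytic subunit of the first step of synthesis, had 0.22. In SW480 cells the 6 genes were all above 0, with a median of 0.35, and none was called. After the GC correction 3 of them were called, namely SLC7A11 (0.76), GCLC (0.54) and GSS (0.29), where 16.5% of all genes passed. SLC7A11 was far lower in SW480 than in HT29 cells, at 5.92 and 5.99 CPM in the controls and 8.35 and 8.89 CPM after depletion. Glutathione reductase, GSR, passed in neither line (0.05 in HT29 and 0.13 in SW480).

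**Figure D5:**
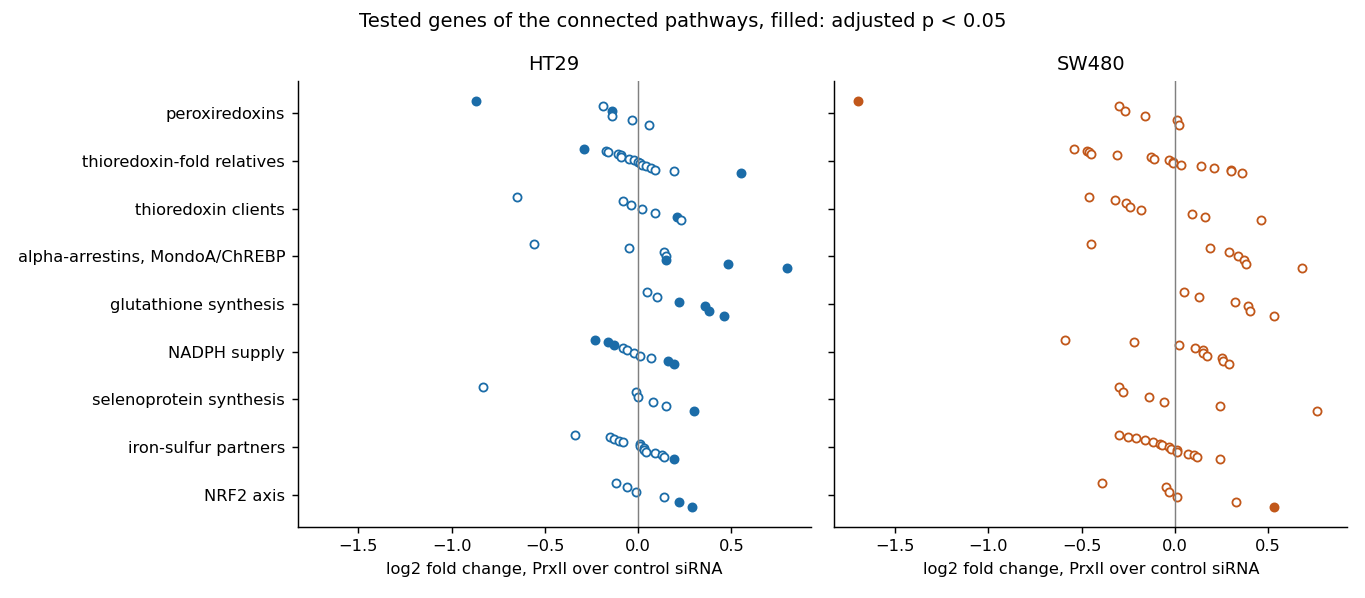
The log2 fold change (PrxII siRNA over control siRNA) of every tested gene of 9 connected lists in HT29 (left) and SW480 cells (right), with filled points for an adjusted p under 0.05. In HT29 cells 4 of 6 glutathione genes are filled to the right of 0, beside 7.76% of all tested genes called higher. In SW480 cells the filled points are PRDX2 at -1.70 and MAFG at 0.53.

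Among genes of NADPH supply in HT29 cells, PGD (0.16) and NNT (0.19) were called higher, and IDH1 (-0.23) and IDH2 (-0.16) were called lower. Of the NRF2 axis, the transcription factor gene NFE2L2 (0.29, adjusted p = 3.09e-05, edgeR) and MAFG, which encodes a small Maf partner (0.22), were called higher in HT29 cells. These are 2 of 6, beside 7.76% of all tested genes called higher. In SW480 cells MAFG was the only gene of the 9 pathway lists to be called beside PRDX2, at 101.2 and 114.4 CPM against 158.0 and 153.3 CPM (0.53, adjusted p = 0.041, edgeR), while NFE2L2 was at -0.05. The calls of the other lists in HT29 cells follow, beside 17.6% of all tested genes called in either direction and 7.76% called higher. Of 16 thioredoxin-fold relatives, TXNL4B was higher (0.55) and TMX1 lower (-0.29). RRM2, a ribonucleotide reductase subunit that thioredoxin can supply with electrons, was higher (0.21), 1 of 7 clients. EEFSEC, the selenocysteine elongation factor, was higher (0.30), 1 of 6 genes of selenoprotein synthesis, and HSPA9, a mitochondrial chaperone of cluster transfer, was higher (0.19), 1 of 14 iron-sulfur partners.

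Over the 8 libraries, after each line's mean had been subtracted, the genes with log2 CPM most like TXNIP among 10295 genes were TIPARP, RAB7L1, KLF10, BTG1 and ATF3, with Pearson's r of 0.985 to 0.990. ATF3 had log2 fold changes of 0.93 in HT29 and 0.28 in SW480 cells, and BTG1 had 0.66 and 0.19. Those most like SRXN1 were EIF2AK1, IPPK, TMEM30B, ABLIM3 and DMXL2 (r of 0.983 to 0.991). With so few libraries, which share depth and GC tilt, 142 genes exceeded an r of 0.9 with TXNIP and 126 with SRXN1, so these names are a description.

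On GRCh37, the assembly of hg19, the GENCODE annotation places TXN on chromosome 9 from 113006090 to 113018787, TXN2 on chromosome 22 from 36863093 to 36877687, TXNRD1 on chromosome 12 from 104609557 to 104744085 and TXNRD2 on chromosome 22 from 19863040 to 19929343. SRXN1 lies on chromosome 20 from 627259 to 633844 and TXNIP on chromosome 1 from 145438490 to 145442635. GLRX lies on chromosome 5 from 95087023 to 95158430, GLRX2 on chromosome 1 from 193059996 to 193075244, GLRX3 on chromosome 10 from 131934655 to 131982785 and GLRX5 on chromosome 14 from 95999840 to 96011061. TXNIP is on the plus strand in GRCh37 and on the minus strand in GRCh38, whose coordinates were used for the promoter windows alone.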

How the data were processed

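Messenger RNA was measured in 8 libraries, grouped by cell line and siRNA as labelled. For HT29, the methods name trimming, MapSplice alignment to hg19 and RSEM on refGene. The files that the authors deposited hold RSEM expected counts per gene symbol, TPM values that sum to 1000000 and FPKM values, of which the last gave no result here. Effective lengths, also deposited, were shorter than transcript lengths by a median of 51.7 to 59.3 bases per library, which is little for the paired reads and insert that the methods name. How many reads the tables rest on, and whether they were paired, could not be settled, so counting errors hold for the deposited counts alone. Expected counts (96.5 to 97.1% whole within 0.005) were rounded. Genes reaching 10 counts in 2 or more libraries of a fit were tested with edgeR 4.0.16 (TMM, quasi-likelihood, Benjamini-Hochberg, 0.05) across all genes. Alternatives were RLE, no filter, DESeq2 1.42.0, limma 3.58.1 on log2 TPM with a pseudocount of 1 or 0.1, leaving out each library, a replicate block, all 8 libraries together, and a loess correction (span 0.5) on transcript GC content, known for 95% of the counted genes. The tests were checked on simulated counts, with changes placed in genes above 5 CPM. Each simulation gave all genes 1 common spread and no GC tilt. The SW480 controls do carry such a tilt, so the rates need not hold for these data. At a simulated log2 change of 0.3, the HT29, SW480, difference and control-group tests recovered 52, 2, 4 and 2% of the changed genes. At 0.6 they recovered 94, 34, 30 and 54%. Members, lists and tests were chosen with earlier results of these data known. All members were named. List genes were named if called in either line at 5 CPM or more, at most 4 by size. Likeness used log2(CPM + 0.5). Some items are not reported here.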

Additional observations from a re-analysis of the deposited data

How the results depend on the processing

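Single-member values kept direction and side of the threshold in 127 of 130 cases in HT29, 97 of 130 in SW480, 132 of 150 for the difference between lines and 103 of 120 between the control groups. Members called were 2 in HT29 and 1 with all 8 libraries fitted together. In SW480 they were 0, against 2 with the GC correction, 6 with all 8 libraries, 4 with the replicate block and GC correction, and 0 to 7 with 1 library left out. For the difference they were 0, against 1 without the filter, with DESeq2 and with the GC correction, and 0 to 5 with 1 library left out. Between control groups they were 5, and 4 to 8 with 1 library left out, the highest without the second SW480 control. The replicate block alone gave 2, 0, 0 and 5 members. Between control groups the GC correction gave 7, and limma and all 8 libraries together gave 6. The numbers were not taken as a pairing, since only 2 pairs exist per line and the deviations of equal numbers correlated by 0.10 in HT29 and 0.11 in SW480.

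Signs turned for TXN, TXN2, TXNRD1, GLRX, GLRX2 and GLRX3 in some of the comparisons. In HT29 TXN was 0.02 with limma under both pseudocounts. In SW480 the GC correction gave TXN 0.00 and TXN2 -0.06, and with the replicate block added 0.01 and -0.07. With 1 SW480 library left out, TXN2 ran from -0.03 to 0.16, GLRX2 from -0.21 to 0.38 and GLRX3 from -0.44 to 0.05. For the difference, the GC correction gave TXN 0.03, TXN2 -0.10 and GLRX 0.06, and leaving out 1 library gave TXN2 -0.07 to 0.13, TXNRD1 -0.04 to 0.15 and GLRX2 -0.48 to 0.09. Between control groups GLRX2 was 0.05 with limma, and leaving out 1 library gave TXN2 -0.20 to 0.02, TXNRD1 -0.15 to 0.05 and GLRX2 -0.29 to 0.28. The cause was not tested.

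Over all genes, HT29 had 2279 calls, 871 with DESeq2 and 185 with all 8 libraries. SW480 had 466, against 1727 with the replicate block, 2964 with block and GC correction, 2415 with all 8 libraries, 2214 with the GC correction, 214 and 177 with limma, and 87 to 7364 with 1 library left out. The difference had 166, against 267 without the filter, 311 with DESeq2, 103 and 43 with limma, 939 with the GC correction, and 6 to 5237 with 1 library left out. Higher and lower calls were 1006 and 1273 in HT29 but 1252 and 548 with limma, and 172 and 294 in SW480 but 126 and 88 with limma and 858 and 869 with the block. The median log2 difference of all genes between control groups was 0.04, and 0.15 with limma. GLRX2, with 83 to 136 counts, had the widest counting error.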
